A study of Mus musculus with 12 samples.

Results

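The genes described here are 38 listed genes of the hypoxia response and of glycolysis in mouse cells, chosen by name from a fixed list of targets of the hypoxia-inducible factors (HIFs), enzymes of glucose breakdown and glucose and lactate transporters. Of these, 35 were measured, among 19938 genes in all: 16 hypoxia targets and 19 genes of glycolysis and transport. Gapdh, Gpi1 and Eno1 were not analysed here. Affymetrix expression arrays measured total RNA of 12 samples, 3 per group, all grown from a clone of D3, a line of mouse embryonic stem (ES) cells. The groups were the undifferentiated cells at day 0, EBs (embryoid bodies, floating aggregates in which ES cells begin to differentiate) at day 4, EBs given the solvent DMSO for 12 h, and EBs given all-trans retinoic acid (ATRA) at 5 micromolar for 12 h. All EBs were formed without the self-renewal factor LIF in bacteriological dishes, the ES medium held 15% fetal bovine serum, and a result from 1 clone of 1 line need not hold for others. From the labels the 12 h of treatment could fall inside the 4 days or follow them.

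HIFs are transcription factors of an oxygen-regulated alpha subunit and the stable partner Arnt. When oxygen is plentiful, the prolyl hydroxylases encoded by Egln genes mark the alpha subunit, which Vhl then delivers for breakdown. When oxygen is scarce the alpha subunit persists, and genes for glucose uptake, glycolysis, vessel growth, pH control and mitochondrial turnover are transcribed. Pluripotent stem cells are also known for a high rate of glycolysis at ordinary oxygen, and many glycolytic genes answer to other factors besides the HIFs.

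Values are log2 expression values, so a difference of 1 is a doubling. Array medians lay between 7.76 and 7.86, and replicates correlated at 0.992 to 0.997 across probe sets. A few arrays stood apart in ways that touch these genes. The narrowest interquartile ranges, 3.500 and 3.504, were those of ES replicate 2 and EB replicate 2. DMSO replicate 2 was the lowest of its group for 27 of the 35 members, against 26.1% of all genes, and ATRA replicate 1 was the highest of its group for 26 of the 35, against 38.5% of all genes. The members' median SD was 0.043 for the ES arrays, 0.038 for untreated EBs, 0.071 for DMSO and 0.033 for ATRA. Bnip3l, Slc2a1, Slc2a3, Hk1, Aldoa, Tpi1, Pgk1, Pgam1, Pkm and Ldha lay above the mean 95th percentile of the arrays, where array values can be compressed and a difference understated. For Hk1 this holds for the probe set used, with a mean of 13.55, whose link to Hk1 is uncertain, as described below. Another Hk1 probe set averaged 10.42.

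The first comparison set day 4 EBs against undifferentiated ES cells at day 0. Aggregation, culture without LIF and time in culture go together here and cannot be told apart. Of the 35 members, 28 rose and 2 fell in day 4 EBs (limma, adjusted p under 0.05), against 17.8% of all genes that rose and 16.9% that fell. The remaining 5 missed the threshold. The median change of the members was 0.30, against 0.00 over all genes. At 1.5-fold or more, 8 members were higher, where 2.97% of all genes were, and 0 were lower, where 4.21% of all genes were. The arrays did not overlap for 28 members that were higher and 2 that were lower, and for 4228 and 4016 of the 19938 genes. Of the 16 hypoxia targets 14 rose, with a median of 0.41, and of the 19 glycolysis and transport genes 14 rose and 2 fell, with a median of 0.26. The difference between these medians was not tested. In RNA from whole samples, a change in the share of cells of a type and a change of RNA per cell cannot be told apart.

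**Figure D1:**
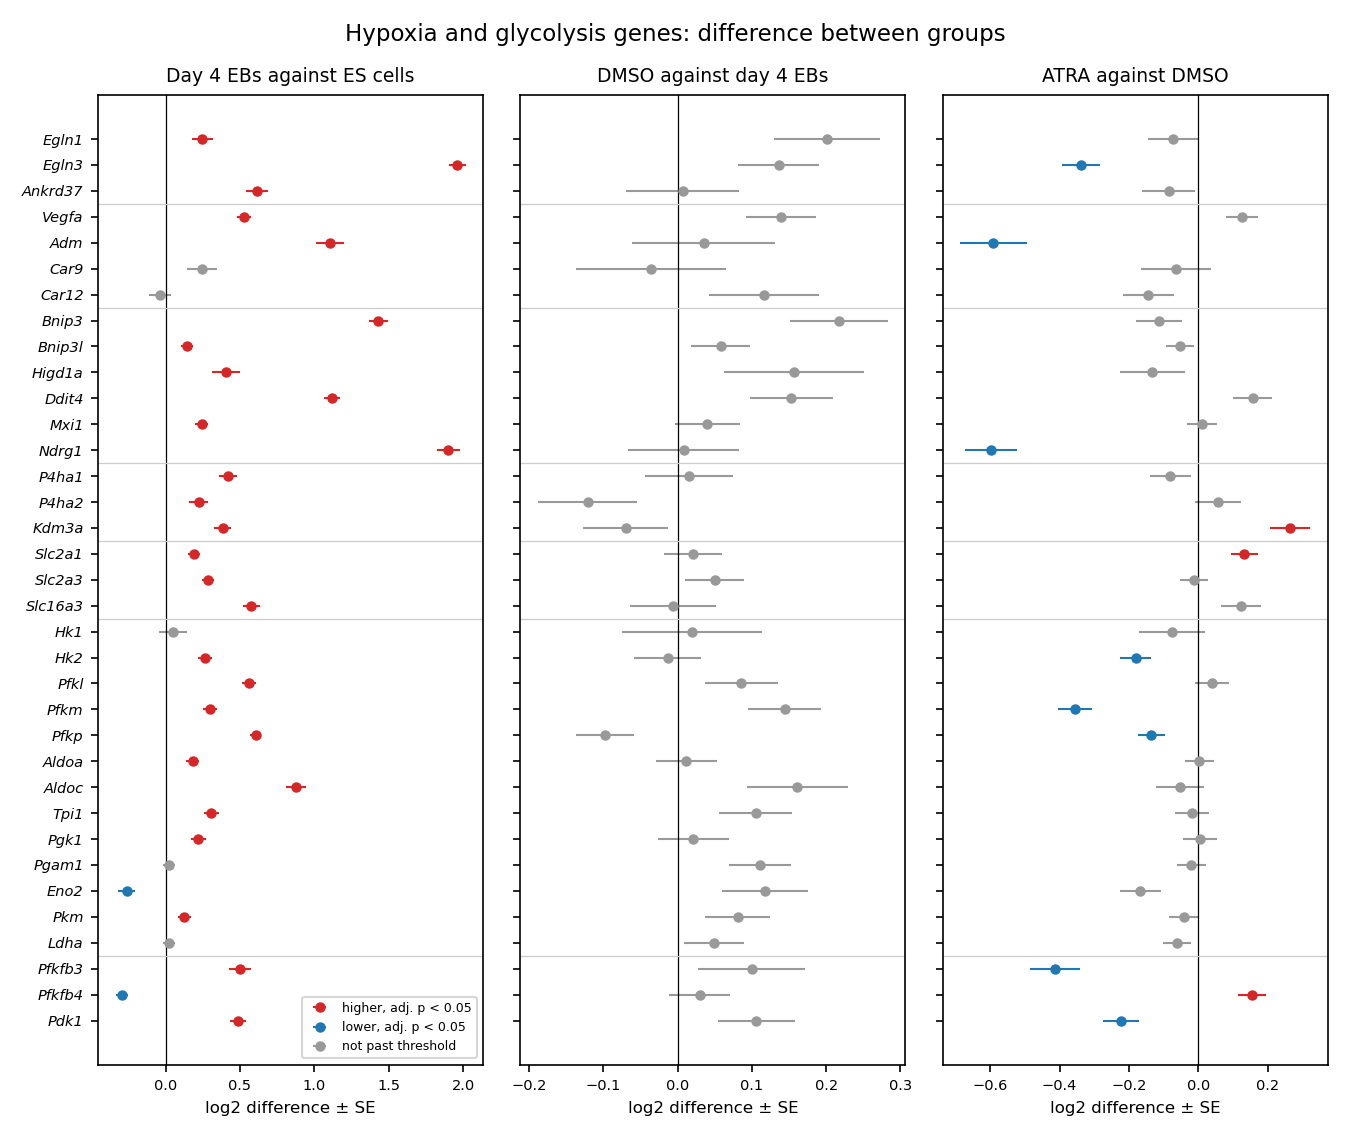
Log2 difference ± SE for each of the 35 measured members (rows, in role groups separated by lines: oxygen sensors and feedback; angiogenesis and pH; mitochondria, cell death and growth; collagen and chromatin hydroxylases; transport; glycolytic enzymes; branch point kinases), 3 arrays per group, with a different x axis in each panel. Red and blue mark adjusted p under 0.05 in limma; 28 members are red and 2 blue for day 4 EBs against ES cells, 0 are coloured for DMSO against day 4 EBs, and 3 are red and 8 blue for ATRA against DMSO.

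Among the oxygen sensors and feedback genes, 3 of 3 rose, where 17.8% of all genes did. Egln3 encodes the prolyl hydroxylase PHD3, which acts on HIF alpha subunits and is itself a HIF target, so that it forms a feedback loop. Its values were 10.66, 10.64 and 10.54 in ES cells and 12.54, 12.59 and 12.59 in day 4 EBs. Every EB array lay above every ES array, as for 4228 of the 19938 genes. The change of 1.96 ± 0.06 (3.9-fold, adjusted p = 1.65e-10) was the largest of all members. Ankrd37, an ankyrin repeat gene induced by HIF-1, rose by 0.61 ± 0.08 (adjusted p = 4.15e-05), from 8.34, 8.38 and 8.12 to 8.80, 9.02 and 8.86. Egln1, which encodes PHD2, the main oxygen sensor of the pathway, rose by only 0.25 ± 0.07 (adjusted p = 0.0162). Its call was lost without EB replicate 2 or without EB replicate 3.

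Of the genes of vessel growth and pH, 2 of 4 rose, where 17.8% of all genes did. Adm, the vasodilator peptide adrenomedullin, measured 7.45, 7.16 and 7.25 in ES cells and 8.40, 8.37 and 8.40 in day 4 EBs. The rise of 1.10 ± 0.10 (2.15-fold, adjusted p = 1.85e-06) separated the groups fully, as 4228 of the 19938 genes did upward. Vegfa, the principal growth factor for blood vessels, rose by 0.53 ± 0.05 (adjusted p = 2.15e-06), from 10.88, 10.95 and 10.92 to 11.37, 11.49 and 11.47. The carbonic anhydrases Car9 and Car12, which sit at the cell surface and regulate pH, did not pass, at 0.25 ± 0.10 and -0.04 ± 0.07. For Car9 the interval of the difference was 0.03 to 0.47 and its ES arrays had the largest SD of any member in that group, 0.22, so that a rise of the size seen for Mxi1 or P4ha1 was within the interval.

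All 6 genes of mitochondrial turnover, cell death and growth control rose, where 17.8% of all genes did. Ndrg1, a stress-responsive gene linked to growth arrest and differentiation, went from 9.78, 9.86 and 9.92 to 11.65, 11.86 and 11.76, a change of 1.90 ± 0.08 (3.74-fold, adjusted p = 1.88e-09). Bnip3, a mitochondrial outer-membrane protein that directs mitochondria to autophagy, went from 10.69, 10.68 and 10.70 to 12.05, 12.20 and 12.10, a change of 1.43 ± 0.07 (2.7-fold, adjusted p = 7.27e-09). Both separated the groups fully, as 4228 of the 19938 genes did upward, and a second Bnip3 probe set gave 1.34. Ddit4 encodes REDD1, an inhibitor of the growth kinase complex mTORC1, and went from 10.22, 10.24 and 10.32 to 11.38, 11.42 and 11.33, a change of 1.12 ± 0.06 (adjusted p = 1.61e-08). The related mitophagy receptor Bnip3l rose far less, by 0.14 ± 0.04 (adjusted p = 0.0137), and lost its call when only ES and EB arrays were fitted. Higd1a, a mitochondrial protein of hypoxia survival, rose by 0.40 ± 0.09, and Mxi1, a repressor that antagonises Myc, by 0.24 ± 0.04.

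**Figure D2:**
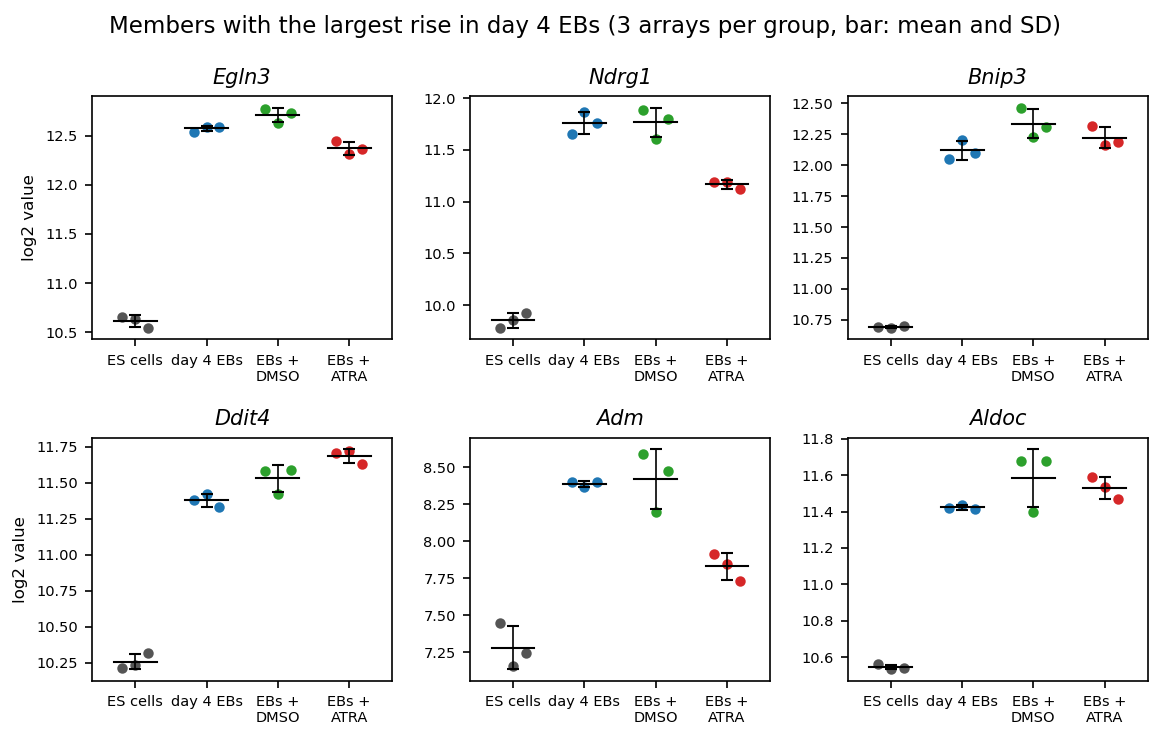
Log2 value of each array (points, y axis, with a different range in each panel) for the 6 members with the largest rise in day 4 EBs, by group (x axis), with bars for the mean and SD of 3 arrays. The 3 ES arrays are the lowest in every panel; Egln3, Ndrg1 and Adm are lower with ATRA than with DMSO, and Bnip3, Ddit4 and Aldoc were not called in that comparison.

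The collagen and chromatin hydroxylases need oxygen and 2-oxoglutarate, as the Egln enzymes do, and 3 of 3 rose, where 17.8% of all genes did. P4ha1, a collagen prolyl hydroxylase, measured 11.30, 11.12 and 11.16 in ES cells and 11.60, 11.64 and 11.60 in day 4 EBs, and rose by 0.42 ± 0.06 (adjusted p = 0.000107). P4ha2, its paralog, rose by 0.22 ± 0.07 (adjusted p = 0.0222), a call lost without EB replicate 1, EB replicate 2 or ES replicate 1. Kdm3a, a histone H3 lysine demethylase, rose by 0.38 ± 0.06 (adjusted p = 0.000188).

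The promoters of these genes are shown because so many of them rose together and because HIFs are known to bind a short core, written A or G followed by CGTG. RefSeq promoter windows (build GRCm38.p6, from 250 bases before to 50 bases after each gene start) were at hand for 32 of the 35 measured members, 48 windows in all; Ndrg1, Bnip3l and Slc2a3 had none. The 250 bases before the start of 4 of the members with the largest rises follow, with those of Ldha, which did not rise, for contrast. They are written 5′ to 3′ on the gene's own strand, with every ACGTG or GCGTG, read on either strand (CACGT or CACGC when on the other), in capitals. A CACGTG is matched on both strands at once. Egln3 lies at chr12:54203875-54204124 on the minus strand, Bnip3 at chr7:138909507-138909756 on the minus strand, Ddit4 at chr10:59951771-59952020 on the minus strand, Adm at chr7:110627407-110627656 on the plus strand and Ldha, the first of its 2 windows, at chr7:46845554-46845803 on the plus strand.
Egln3: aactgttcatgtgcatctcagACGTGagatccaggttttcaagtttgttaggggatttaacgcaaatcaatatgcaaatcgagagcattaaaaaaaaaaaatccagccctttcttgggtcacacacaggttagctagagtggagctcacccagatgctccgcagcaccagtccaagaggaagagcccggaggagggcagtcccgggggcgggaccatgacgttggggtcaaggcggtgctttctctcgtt
Bnip3: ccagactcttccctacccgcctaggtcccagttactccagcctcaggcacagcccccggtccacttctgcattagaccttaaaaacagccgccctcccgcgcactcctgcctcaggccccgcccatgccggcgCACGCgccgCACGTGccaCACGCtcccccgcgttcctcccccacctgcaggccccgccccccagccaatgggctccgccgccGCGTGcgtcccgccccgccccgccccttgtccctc
Ddit4: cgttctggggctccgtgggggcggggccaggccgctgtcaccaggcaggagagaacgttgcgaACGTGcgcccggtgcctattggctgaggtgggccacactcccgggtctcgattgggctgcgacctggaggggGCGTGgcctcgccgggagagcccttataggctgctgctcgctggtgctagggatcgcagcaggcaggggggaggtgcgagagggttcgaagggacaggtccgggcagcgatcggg
Adm: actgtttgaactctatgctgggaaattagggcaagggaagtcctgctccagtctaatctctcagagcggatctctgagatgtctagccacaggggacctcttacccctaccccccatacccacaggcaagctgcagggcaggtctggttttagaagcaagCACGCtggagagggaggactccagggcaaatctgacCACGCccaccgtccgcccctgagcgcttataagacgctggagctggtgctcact
Ldha: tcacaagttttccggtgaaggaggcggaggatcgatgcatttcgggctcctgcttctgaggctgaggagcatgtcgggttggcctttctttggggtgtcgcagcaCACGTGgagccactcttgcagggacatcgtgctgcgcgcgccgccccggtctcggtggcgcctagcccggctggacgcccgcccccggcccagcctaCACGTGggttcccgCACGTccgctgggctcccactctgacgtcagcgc
The stretch upstream of Egln3 held a single ACGTG, 229 bases before the start, and that of Ddit4 an ACGTG 187 bases and a GCGTG 115 bases before it. The Bnip3 stretch held CACGTG from 108 bases before the start, flanked by CACGC at 117 and 99 bases and a GCGTG at 35 bases. In Adm only the GCGTG form appeared, as CACGC at 90 and 54 bases. Ldha, whose level did not pass the test, carried CACGTG from 145 bases and again from 48 bases before the start, and a further CACGT at 34 bases. Over all windows, ACGTG was in 27 of the 48 windows of members, 56.2%, against 21.6% of the 19177 windows of genes tested, and GCGTG was in 24 of the 48, against 40.9% of the windows of genes tested. The share with ACGTG was 63.2% for windows of hypoxia targets and 51.7% for those of glycolysis and transport genes. Member windows also held more CG pairs, with a median of 20 against 15. These are letter matches, not measured binding, and many members are textbook HIF targets, so the share is not independent of how the list was made.

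For sugar and lactate transport, 3 of 3 rose in day 4 EBs, where 17.8% of all genes did. Slc16a3, the lactate exporter MCT4, measured 11.41, 11.49 and 11.41 in ES cells and 12.05, 12.04 and 11.95 in day 4 EBs, a rise of 0.58 ± 0.06 (adjusted p = 6.73e-06). The glucose transporters Slc2a3 (GLUT3) and Slc2a1 (GLUT1) rose by 0.28 ± 0.04 and 0.19 ± 0.04 (adjusted p = 0.000126 and 0.00219). Both were already near the top of the arrays in ES cells, Slc2a1 at 13.76, 13.78 and 13.77 and Slc2a3 at 13.43, 13.43 and 13.40.

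Of the 13 measured glycolytic enzymes, 9 rose, 1 fell and 3 did not pass, where 17.8% of all genes rose and 16.9% fell. Aldoc, the brain-type aldolase, rose most, from 10.56, 10.54 and 10.54 to 11.42, 11.44 and 11.41, a change of 0.88 ± 0.07 (1.84-fold, adjusted p = 6.56e-07). All 3 phosphofructokinase genes, which encode the committed step of glycolysis, rose. Pfkp, the platelet form, went from 11.87, 11.84 and 11.83 to 12.44, 12.47 and 12.44 (0.61 ± 0.04, adjusted p = 1.36e-07). Pfkl, the liver form, went from 11.61, 11.60 and 11.59 to 12.17, 12.19 and 12.13 (0.56 ± 0.05, adjusted p = 1.89e-06), and Pfkm, the muscle form, changed by 0.30 ± 0.05 (adjusted p = 0.000389). The groups did not overlap for any of these enzymes, and 4228 of the 19938 genes were likewise higher without overlap.

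The other enzymes that rose changed by 0.31 or less. Tpi1 (triose phosphate isomerase) rose by 0.31 ± 0.05, Pgk1 (phosphoglycerate kinase) by 0.22 ± 0.05, the main aldolase Aldoa by 0.18 ± 0.04, and Hk2, an inducible hexokinase, by 0.26 ± 0.05. Pkm (pyruvate kinase) rose by 0.13 ± 0.04 (adjusted p = 0.0444), and that call was lost when any 1 of the 6 ES and EB arrays was left out. A second Pkm probe set gave 0.11 and did not pass (adjusted p = 0.156). Ldha, the lactate dehydrogenase subunit that favours lactate formation, measured 13.71, 13.67 and 13.72 in ES cells and 13.75, 13.68 and 13.73 in day 4 EBs. Its difference was 0.02 ± 0.04 with an interval of -0.07 to 0.11, and that of Pgam1 (phosphoglycerate mutase) was 0.02 ± 0.04 with the interval -0.07 to 0.11. Both genes are among those in the upper range of the arrays, where compression is possible. Hk1 gave 0.05 ± 0.09, but its probe set is annotated only through an accession shared with probe sets of the ribosomal gene Rpl17; another Hk1 probe set gave -0.04. Eno2, the neuron-type enolase, fell by 0.26 ± 0.06 (adjusted p = 0.00354).

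The 3 branch point kinases set how much sugar passes phosphofructokinase or enters mitochondria. Pfkfb3 makes fructose 2,6-bisphosphate, the strongest activator of phosphofructokinase, and went from 8.50, 8.31 and 8.40 to 8.88, 9.01 and 8.81, a rise of 0.50 ± 0.07 (adjusted p = 0.000143). Pdk1, which inactivates pyruvate dehydrogenase, rose by 0.49 ± 0.05 (adjusted p = 1.09e-05), from 11.41, 11.28 and 11.24 to 11.80, 11.79 and 11.79. Pfkfb4, a paralog of Pfkfb3 that is also a HIF target, moved the other way. It went from 8.62, 8.64 and 8.61 to 8.31, 8.37 and 8.30 (-0.30 ± 0.04, adjusted p = 0.000104). In this fall every EB array lay below every ES array, as for 4016 of the 19938 genes.

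**Figure D3:**
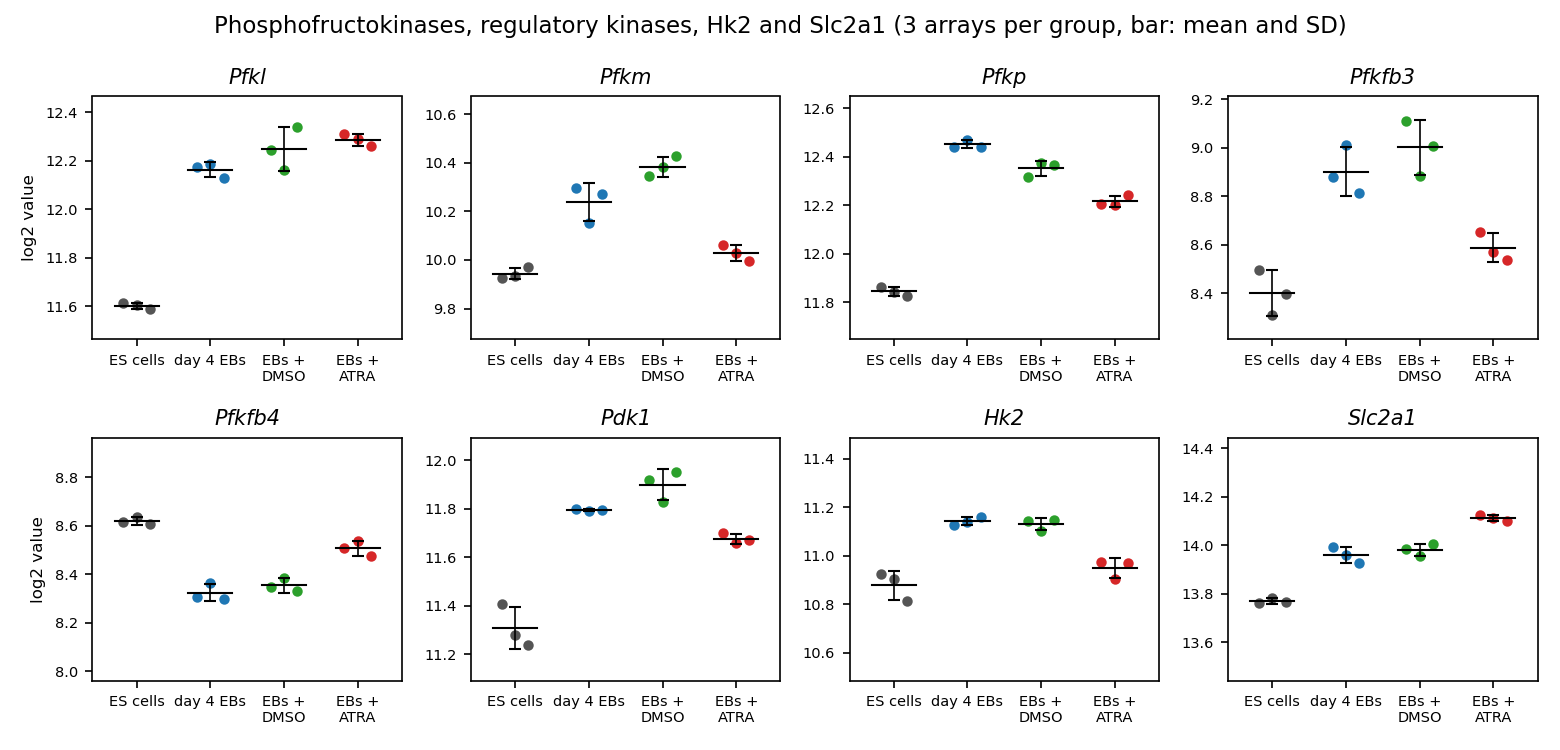
Log2 value of each array (points, y axis spanning the same width in each panel) for the 3 phosphofructokinases, the 3 regulatory kinases, Hk2 and Slc2a1, by group (x axis), with bars for the mean and SD of 3 arrays. Pfkfb4 is the one gene here with its highest values in ES cells, and Pfkm with ATRA lies near its ES level.

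Markers of other cell types moved over the same comparison, in which 17.8% of all genes rose and 16.9% fell. The 7 of 7 measured visceral endoderm markers rose, and their summed log2 level went from between 11.63 and 11.66 in ES cells to between 13.75 and 13.95 in day 4 EBs. Of 8 fibroblast markers 7 fell, and their summed level went from between 13.14 and 13.21 to between 11.64 and 11.77. Of 4 pluripotency genes 1, Sox2, rose (0.32 ± 0.06, adjusted p = 0.000828) and 0 fell, and their summed level lay between 14.92 and 15.05 over both groups. The deposited values carry no detection measure, so no marker can be called absent. The part of these cell types in the changes of the hypoxia and glycolysis genes was not tested.

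The other genes of the pathway were taken from lists that hold none of the 38 genes. In the HIF machinery, 4 of 8 genes rose in day 4 EBs and 0 fell, where 17.8% of all genes rose and 16.9% fell. Hif1a, the best known alpha subunit, measured 12.04, 11.98 and 11.95 in ES cells and 11.94, 11.93 and 12.01 in day 4 EBs (-0.02 ± 0.05, adjusted p = 0.769). The other alpha subunits rose: Epas1 (HIF-2 alpha) from 10.58, 10.60 and 10.69 to 11.59, 11.40 and 11.49 (0.87 ± 0.06, adjusted p = 2.25e-07) and Hif3a from 7.77, 7.80 and 7.78 to 8.96, 8.92 and 9.12 (1.22 ± 0.07, adjusted p = 4.33e-08). Arnt2 rose by 0.36 ± 0.07 and the prolyl hydroxylase gene Egln2 by 0.17 ± 0.05, while Arnt, Vhl and Hif1an did not pass. Transcript levels do not show the amount of HIF protein, which is controlled mainly by breakdown.

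Of 17 measured further HIF targets, 12 rose (70.6%) and 3 fell (17.6%), with a median of 0.41. Over all genes 17.8% rose and 16.9% fell, so the list's share of falls was close to that of all genes. Stc2, a secreted glycoprotein of stress responses, rose by 2.13 ± 0.06 (adjusted p = 2.19e-10), from 8.60, 8.76 and 8.59 to 10.89, 10.74 and 10.71. Gbe1 and Gys1, which build glycogen, rose by 0.92 ± 0.08 and 0.54 ± 0.04, and Hmox1, the heme-degrading enzyme, by 0.71 ± 0.05. Lox, a collagen cross-linking enzyme that fibroblasts also make, fell by 2.15 ± 0.10 (adjusted p = 7.27e-09). Stc1 fell by 0.32 ± 0.07 and Edn1 (endothelin) by 0.46 ± 0.14. Of 10 genes of pyruvate entry and lactate, 4 rose (40%) and 1 fell (10%). Ldhb, the subunit that favours conversion of lactate to pyruvate, went from 8.79, 8.89 and 8.79 to 10.05, 10.06 and 10.03 (1.22 ± 0.05, adjusted p = 3.83e-09), while Ldha stayed within 0.11 of its ES level by its interval. Pdk4 and Pdk2 rose by 0.75 ± 0.06 and 0.62 ± 0.08, as Pdk1 did, and Mpc1, a subunit of the mitochondrial pyruvate carrier, fell by 0.31 ± 0.06.

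**Figure D4:**
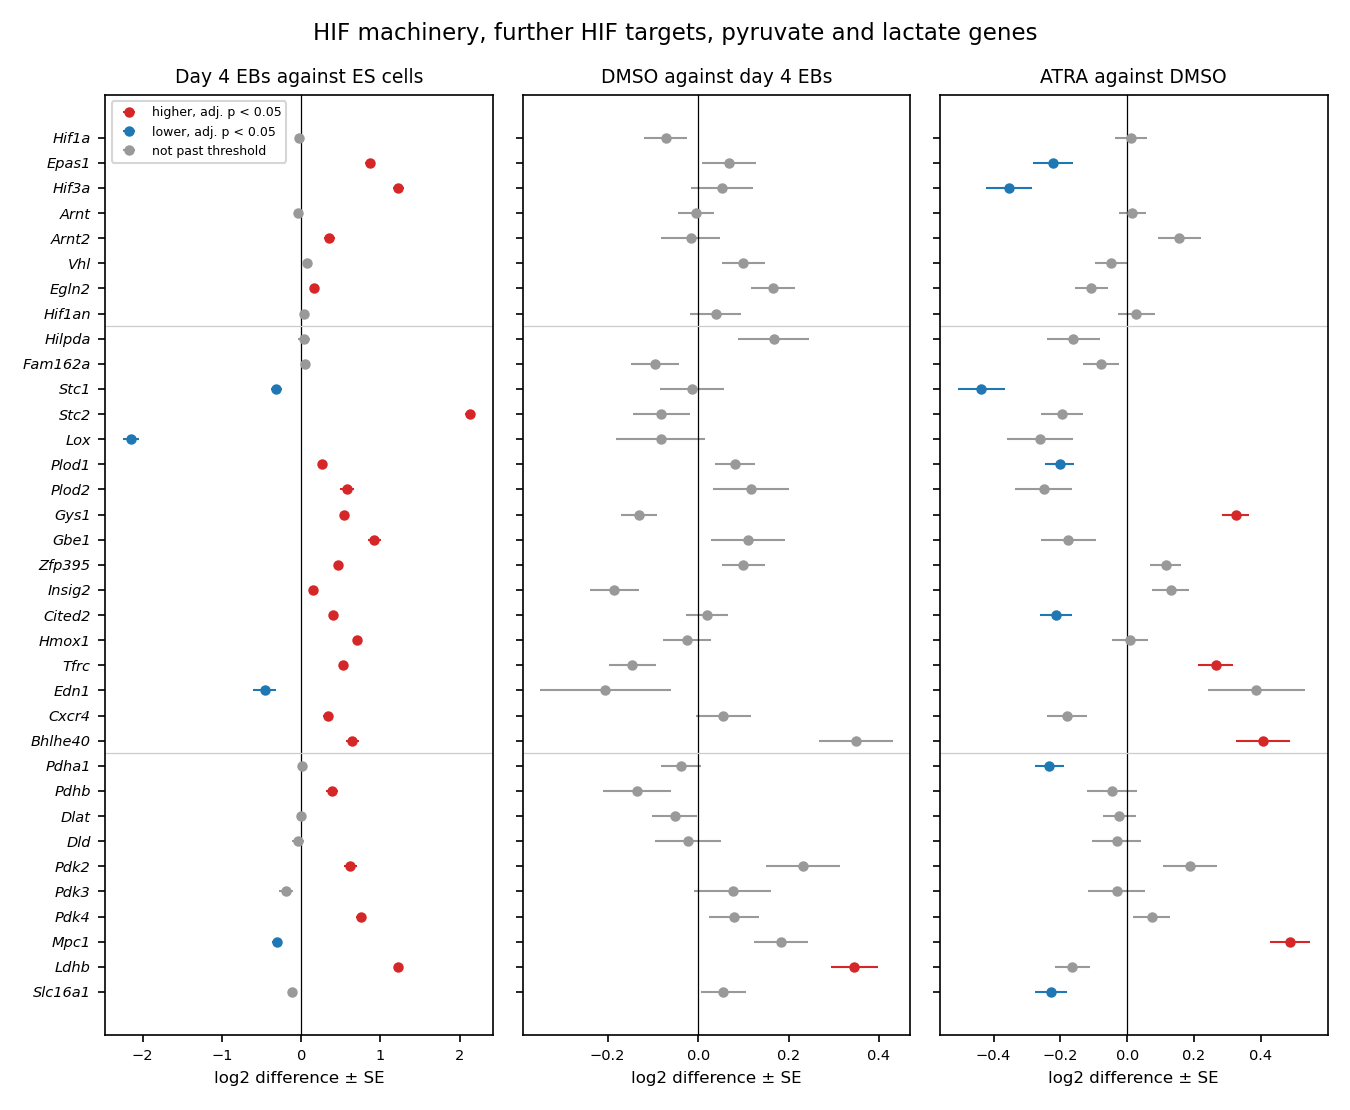
Log2 difference ± SE for 8 genes of the HIF machinery, 17 further HIF targets and 10 genes of pyruvate entry and lactate (rows, separated by lines), 3 arrays per group, with a different x axis in each panel. Red and blue mark adjusted p under 0.05 in limma; Hif1a is grey in all panels, Epas1 and Hif3a are red for day 4 EBs and blue for ATRA against DMSO, and Lox and Stc2 have the largest fall and rise in day 4 EBs.

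The second comparison set the solvent control against untreated day 4 EBs. No member passed in limma, where 0.537% of all genes were higher and 0.211% lower; 9 members had an unadjusted p under 0.05, as did 3256 of the 19938 genes. The largest differences were those of Bnip3 (0.22 ± 0.07, adjusted p = 0.142), at 12.47, 12.23 and 12.31 with DMSO, and Egln1 (0.20 ± 0.07, adjusted p = 0.195). The median of the members was 0.05 against -0.02 over all genes, and 29 of 35 differences were above 0, as were 8077 of the 19938 over all genes. The arrays did not overlap for 11 members that were higher with DMSO, where 9.50% of all genes were, and for 1 that was lower, Pfkp, where 12.9% of all genes were. Without DMSO replicate 2, the lowest DMSO array for most members, 1 member was called, Aldoc, and 128 of all genes were. Outside the list, Ldhb rose again, by 0.35 ± 0.05 (adjusted p = 0.0162), to 10.44, 10.31 and 10.43. Of the visceral endoderm markers 3 of 7 were higher with DMSO, with a summed level between 14.04 and 14.24, and their part in these values was not tested.

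The third comparison asked what 12 h of ATRA changed relative to DMSO. Of the 35 members 3 rose and 8 fell, against 6.26% of all genes that rose and 7.05% that fell, and the other 24 missed the threshold. With each array centred on its median, 1 rose and 7 fell, while calls over all genes went from 2655 to 2303. The median was -0.06, against 0.01 over all genes. The arrays did not overlap for 5 members that were higher and 11 that were lower, and for 3907 and 3992 of the 19938 genes. All 4 ATRA response markers rose, with a summed level between 12.88 and 12.94 against 10.63 to 10.73 with DMSO. All 8 members that fell, Egln3, Adm, Ndrg1, Hk2, Pfkm, Pfkp, Pfkfb3 and Pdk1, were among the 28 that had risen in day 4 EBs against ES cells. That set held 80% of the members, so most of any 8 members would lie in it, and the overlap was not tested. The comparisons share no array, but both took the spread of each gene from the same fit. A further 18 members rose in day 4 EBs and passed neither for DMSO against day 4 EBs nor for ATRA against DMSO. Vegfa and Ddit4, among these, were called higher with ATRA than in untreated day 4 EBs.

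Among the 16 hypoxia targets 1 rose and 3 fell, where 6.26% of all genes rose and 7.05% fell. Ndrg1 went from 11.89, 11.60 and 11.80 with DMSO to 11.19, 11.19 and 11.12 with ATRA, a fall of 1.51-fold (-0.60 ± 0.08, adjusted p = 0.000171). Adm went from 8.59, 8.20 and 8.48 to 7.91, 7.85 and 7.73, also 1.51-fold (-0.59 ± 0.10, adjusted p = 0.00122). These were the 2 members past 1.5-fold downward, where 0.677% of all genes were. Egln3 went from 12.77, 12.63 and 12.74 to 12.44, 12.31 and 12.36 (-0.34 ± 0.06, adjusted p = 0.00116), which left it 1.76 above ES cells, while Adm remained 0.55 and Ndrg1 1.31 above. In each of the 3 genes all ATRA arrays lay below all DMSO arrays, as they did for 3992 of the 19938 genes.

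The other hypoxia targets were not called lower. Bnip3 measured 12.32, 12.17 and 12.19 with ATRA and its interval against DMSO was -0.26 to 0.03, with overlapping arrays. Vegfa (0.13 ± 0.05, adjusted p = 0.108) and Ddit4 (0.16 ± 0.06, adjusted p = 0.0948) did not pass. All their ATRA arrays, at 11.71, 11.70 and 11.72 for Vegfa and 11.71, 11.72 and 11.63 for Ddit4, lay above all DMSO arrays. The same was so for 3907 of the 19938 genes. Kdm3a rose, from 11.15, 11.19 and 11.07 to 11.43, 11.36 and 11.41 (0.26 ± 0.06, adjusted p = 0.00808). Whether Kdm3a responded differently from Egln3, Adm or Ndrg1 was not tested beyond each gene's own test. For Higd1a, the probe set used did not pass, while its second probe set, of lower level, gave -0.22 (adjusted p = 0.0102).

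Of the 13 glycolytic enzymes 0 rose and 3 fell with ATRA, where 6.26% of all genes rose and 7.05% fell. Pfkm went from 10.34, 10.38 and 10.43 with DMSO to 10.06, 10.03 and 9.99, a fall of 0.36 ± 0.05 (adjusted p = 0.000316) that brought it to within 0.09 of its mean in ES cells. Hk2 fell by 0.18 ± 0.05 (adjusted p = 0.0169) and Pfkp by 0.14 ± 0.04 (adjusted p = 0.038). The Hk2 call was lost without ATRA replicate 2, DMSO replicate 1 or DMSO replicate 3, and the Pfkp call without any 1 of the 6 arrays. Pfkl measured 12.31, 12.29 and 12.26 with ATRA, and its interval against DMSO was -0.07 to 0.14. The intervals of some core enzymes were narrow and included 0, -0.09 to 0.09 for Aldoa, -0.10 to 0.11 for Pgk1 and -0.15 to 0.03 for Ldha. These 3 genes lie in the upper range of the arrays, where compression is possible. Ldha did not pass (adjusted p = 0.373), but all its ATRA arrays lay below all DMSO arrays, as for 3992 of the 19938 genes.

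All 3 branch point kinases passed with ATRA, in opposite directions, where 6.26% of all genes rose and 7.05% fell. Pfkfb3 went from 9.11, 8.89 and 9.01 to 8.65, 8.57 and 8.54, a fall of 0.41 ± 0.07 (adjusted p = 0.00201). Pfkfb4 went from 8.35, 8.39 and 8.33 to 8.51, 8.54 and 8.48, a rise of 0.15 ± 0.04 (adjusted p = 0.0265). The pair of paralogs thus moved against each other in both the EB and the ATRA comparison, each time with no overlap between the groups. Groups without overlap, in either direction, were found for 8244 and 7899 of the 19938 genes in these comparisons. The Pfkfb4 call under ATRA was lost without DMSO replicate 1 or 3 or any 1 ATRA array. Pdk1 fell by 0.22 ± 0.05 (adjusted p = 0.0122), from 11.92, 11.83 and 11.95 to 11.70, 11.66 and 11.67, and that call was lost without ATRA replicate 2 or DMSO replicate 3.

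In transport, Slc2a1 rose by 0.13 ± 0.04 (adjusted p = 0.0444), from 13.98, 13.96 and 14.01 to 14.13, 14.11 and 14.10. The ATRA arrays were the highest of the series for this gene, but the call was lost when any 1 of the 6 arrays was left out. Slc2a3 and Slc16a3 did not pass, with intervals of the difference of -0.10 to 0.07 and 0.00 to 0.25.

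The same ATRA arrays were also set against untreated day 4 EBs; both comparisons share these arrays, so their calls are not independent. Here 5 members were higher and 7 lower, where 7.79% of all genes were higher and 10.6% lower. Ndrg1 (-0.59 ± 0.08), Adm (-0.56 ± 0.10), Pfkfb3 (-0.31 ± 0.07), Pfkm (-0.21 ± 0.05), Pfkp (-0.23 ± 0.04), Egln3 (-0.20 ± 0.06) and Hk2 (-0.19 ± 0.05) were lower. Ddit4 (0.31 ± 0.06, adjusted p = 0.00219), Vegfa (0.27 ± 0.05, adjusted p = 0.00182), Kdm3a, Pfkfb4 and Slc2a1 were higher. Of these calls, that of Kdm3a was lost without any 1 of the 6 arrays, that of Egln3 without ATRA replicate 2 or 3 or EB replicate 2 or 3, that of Slc2a1 without ATRA replicate 1 or 2 or EB replicate 3, and that of Hk2 without ATRA replicate 2. The Hk1 probe set used did not pass, while the one not shared with Rpl17 was lower (-0.32, adjusted p = 0.00434). The Higd1a probe set used did not pass either, at 0.02 ± 0.09, while its second probe set was lower (-0.20, adjusted p = 0.0142). Pdk1, at -0.12 ± 0.05, did not pass against untreated EBs (adjusted p = 0.151).

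In the HIF machinery 2 of 8 genes fell with ATRA against DMSO and 0 rose. Over all genes in this comparison 6.26% rose and 7.05% fell, and in lists of 8 to 17 genes a share rests on few calls. Hif3a fell by 0.36 ± 0.07 (adjusted p = 0.00426), to 8.71, 8.64 and 8.75, and Epas1 by 0.22 ± 0.06 (adjusted p = 0.0265), to 11.31, 11.33 and 11.38. The Epas1 call was lost without ATRA replicate 1, ATRA replicate 2 or DMSO replicate 2. Hif1a differed by 0.01 ± 0.05. Among the 17 further HIF targets 3 rose and 3 fell: Gys1 (0.33 ± 0.04, adjusted p = 0.00014), Bhlhe40, a transcriptional repressor (0.41 ± 0.08), and Tfrc, the transferrin receptor (0.27 ± 0.05), rose, while Stc1 (-0.44 ± 0.07, adjusted p = 0.00115), Plod1, a collagen lysyl hydroxylase (-0.20 ± 0.04), and Cited2, which competes with HIF for a coactivator (-0.21 ± 0.05), fell. Of the 10 pyruvate and lactate genes 1 rose and 2 fell. Mpc1 rose by 0.49 ± 0.06 (adjusted p = 0.000128), from 11.11, 11.22 and 11.23 to 11.73, 11.64 and 11.64, whereas Pdha1, a subunit of pyruvate dehydrogenase, fell by 0.23 ± 0.04 and the lactate transporter gene Slc16a1 by 0.23 ± 0.05.

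Cell type markers moved with ATRA too, where 6.26% of all genes rose and 7.05% fell against DMSO. Of the 7 visceral endoderm markers 5 fell against DMSO, with a summed level between 13.76 and 13.98 against 14.04 to 14.24. Of the 8 fibroblast markers 2 rose and 3 fell, with a summed level between 11.74 and 11.78 against 11.63 to 11.69. Pdgfrb (2.82-fold) and Loxl1 (0.23 ± 0.04) rose, whereas Dcn (-0.41 ± 0.06), S100a4 (-0.40 ± 0.07) and Thy1 (-0.36 ± 0.06) fell, so the sum and most of the called genes differ in sign. Of the 4 pluripotency genes 2 fell, Zfp42 (-0.57 ± 0.06, adjusted p = 3.71e-05) and Sox2 (-0.21 ± 0.06, adjusted p = 0.0374), and the list summed to between 14.87 and 14.91 against 14.96 to 15.00. Of the 5 measured endothelial and blood markers, Pecam1 rose (0.73 ± 0.05) and Cdh5 fell (-0.30 ± 0.06), and the list summed to between 11.58 and 11.65 against 11.31 to 11.35. Their part in the ATRA values of the members was not tested.

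Over the 4 groups, the lowest mean was that of ES cells for 31 of the 35 members. The highest was that of DMSO-treated EBs for 20, ATRA-treated EBs for 9, day 4 EBs for 4 and ES cells for 2, Eno2 and Pfkfb4. All groups but the ES cells are EBs, so the count for ES cells largely repeats the first comparison. Shares of such places over all genes were not counted. These orders compare means within a gene, and a place in them is no test: none of the DMSO-treated means that came highest was called above that of day 4 EBs.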

How the data were processed

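The members, the gene lists and the tests were chosen with earlier results of these data known. The authors deposited 1 table of log2 values, 35556 probe sets by 12 arrays; their range, 2.30 to 14.7, is the basis for reading them as log2. Log base, background correction and normalization were not given in the sources used here, and arrays put on nearly one distribution hide changes of total RNA per cell. Per the labels' protocols, RNA came from RNeasy kits and cDNA from the Ambion WT Expression kit. Gene names came from the platform annotation: 21789 had 1 symbol, 1621 several, 12146 none, and 21698 were found by gene identifier in RefSeq (GRCm38.p6), with 0 symbols changed. Each gene was represented by the one of its single-symbol probe sets whose mean was highest, with no filter on low values. The fit was limma 3.58.1 in R 4.3.3: a mean per group over 12 arrays and eBayes (8 residual, 3.93 prior degrees of freedom). Tests were two-sided, p-values were adjusted over 19938 genes by Benjamini-Hochberg, and the threshold was 0.05. Errors after ± are standard errors of the fit unless called SD, n = 3 arrays per group, and intervals are 95%. Replicates are biological per the labels, and p-values reflect the spread among them; their number limits the precision. No pair of arrays shared more than 0.0562% of values exactly. Values per array were given for up to 4 members of a role group by smallest adjusted p. Alternatives were other scalings, filters, probe set rules, priors, weights and thresholds, the replicate number as a block and each array left out; the code was tested on simulated data. A gene of the marker lists is not reported here.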

Additional observations from a re-analysis of the deposited data

How the results depend on the processing

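No member changed direction while called under any setting tried. Against 30 members called in day 4 EBs, 11 for ATRA against DMSO and 12 for ATRA against day 4 EBs, the requirement of at least 1.5-fold left 8, 2 and 1. Of 6925, 2655 and 3673 calls over all genes it left 1433, 342 and 372. An adjusted p of 0.01 left 6 for ATRA against DMSO, and 1605 over all genes. With 1 array left out at a time, the counts ran from 27 to 30 for day 4 EBs, from 0 to 1 for DMSO against day 4 EBs, from 6 to 9 for ATRA against DMSO and from 8 to 11 for ATRA against day 4 EBs. In the same order, calls over all genes ran from 6013 to 7102, 0 to 128, 1868 to 2066 and 2495 to 3411. With all arrays they were 6925, 149, 2655 and 3673. DMSO against day 4 EBs gave 1 call among genes above the median level and 2 with an intensity trend. Calls over all genes in these settings were 761 and 626, against 149 in the main fit. Egln3, Adm, Ndrg1, Pfkm, Pfkfb3 and Kdm3a kept their ATRA call in each fit with an array of the comparison left out. Median centring left 1 higher and 7 lower for ATRA against DMSO, without Slc2a1, Pfkp and Pfkfb4, and array weights gave 14 calls, Vegfa and Ddit4 among them. Calls over all genes for ATRA against DMSO went from 2655 to 2303 with median centring and to 4311 with array weights. Without ES replicate 2 and EB replicate 2, the counts were 27, 0, 10 and 10, and over all genes 6248, 27, 3122 and 3782. That setting was chosen after seeing the data. A rule that prefers probe sets with a RefSeq mRNA, also added then, changed 1 member, Hk1, which was then called lower for ATRA against day 4 EBs and brought that count to 13. With the replicate number as a block, 29, 0, 9 and 12 members were called, and 6848, 62, 2553 and 3514 of all genes. Same-numbered samples of day 4 EBs and ES cells correlated at -0.065 to 0.506, with 2 of 3 pairs above 0.1, and those of ATRA and DMSO at -0.038 to 0.088. In these comparisons 3 and 2 of 6 samples correlated best with their own number. With 3 arrays per group, such correlations do not settle whether the numbers pair the samples. The causes of these shifts were not tested.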

Other observations

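Of 11 measured further glycolytic genes, mostly isoforms of muscle, liver or germ cells, 2 rose and 1 fell in day 4 EBs, shares of 18.2% and 9.1%, where 17.8% of all genes rose and 16.9% fell, so the list's share of rises was close to that of all genes. Pfkfb2 rose by 0.77 ± 0.06 and Slc2a4, the insulin-responsive glucose transporter, by 0.37 ± 0.08, while Eno3, the muscle enolase, fell by 0.35 ± 0.05. With ATRA against DMSO, Pgam2 rose by 0.38 ± 0.06 and Pklr by 0.23 ± 0.06. Of 6 measured genes of the pentose phosphate pathway, Pgls (0.24 ± 0.07) and Rpe (0.18 ± 0.05) rose in day 4 EBs, and Rpe fell by 0.18 ± 0.05 with ATRA, a call that was lost whenever 1 of the 6 arrays was left out.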
